A study of Homo sapiens with 4 samples.

Results

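The genes described here are the 208 protein-coding genes of the autosomes and chromosome X whose annotated span, from start to end, reaches 600 kb in the RefSeq annotation of GRCh38.p14 (hg38). They are 1.05% of the 19818 such genes of any length. Another 3 genes of this length are left out by the rule and are not reported here. Apart from those 3, the rule uses gene length and no measured value. They run from 603 kb to 2474 kb with a median of 850 kb, and 67 reach 1 Mb. Together they cover 202 Mb, which is 16% of all sequence inside protein-coding genes. Chromosome 3 holds 26 of them, chromosome 2 holds 18 and chromosome 10 holds 17, while chromosome 19 holds none. IQCJ-SCHIP1 and SCHIP1 share sequence and are the only overlapping pair.

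γH2AX is the histone variant H2A.X phosphorylated on its tail by the kinases ATM, ATR and DNA-PK, in the chromatin around a DNA double-strand break or a stalled replication fork. Very long genes take hours to transcribe, and some of them coincide with common fragile sites, regions that break when replication is slowed in cells that use the gene. Many of them encode adhesion molecules, synaptic scaffolds, receptors and channels of neurons. Others, such as GPHN, WWOX and EXOC4, are used in most tissues.

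The study applied CUT&Tag to HepG2, a line of human liver cancer cells. In CUT&Tag a transposase tethered to an antibody cuts and tags the DNA nearby, so that a peak marks a place with many tagged fragments. The groups were 1 library of cells under induced lipid overload (PAOA in the title) and 1 library of mock-induced cells (DMSO in the title), both with the γH2AX antibody, and each condition also had a control IgG library, not analysed here. All libraries came from this 1 line, in the same medium with serum. The lists hold no expression values, so the labelled cell line was not checked against marker genes. The lipid-overload list held 27270 peaks on chromosomes 1 to 22 and X and the mock list 8521, or 0.937 and 0.293 peaks per 100 kb of genome. Peak height is given as the fragments over the summit, solved from the deposited fold and p, with a median of 9 in lipid overload and 5 in mock. The lowest background solved from the peaks was 0.289 fragments in lipid overload and 0.121 in mock. The lipid-overload library was therefore probably the deeper one, but depth itself was not measured. With 1 library per condition no difference between conditions has a replicate check, and treatment and depth cannot be told apart. Intervals in parentheses are exact 95% intervals. They cover counting error only and treat PCR copies as separate molecules.

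Peaks were denser at transcription starts than elsewhere in these genes, so promoter sequences are shown first. ZBTB20, BCAS3, CAMTA1 and CAST carried the 5′ peaks with most fragments in lipid overload. CNTNAP2 and PTPRD are the longest genes with a listed start at the 5′ end and no peak there in either list. Each line is the RefSeq GRCh38.p14 sequence from 250 bases before to 50 bases after the start, read 5′ to 3′ on the strand of the gene, with each CG dinucleotide in capitals.
ZBTB20: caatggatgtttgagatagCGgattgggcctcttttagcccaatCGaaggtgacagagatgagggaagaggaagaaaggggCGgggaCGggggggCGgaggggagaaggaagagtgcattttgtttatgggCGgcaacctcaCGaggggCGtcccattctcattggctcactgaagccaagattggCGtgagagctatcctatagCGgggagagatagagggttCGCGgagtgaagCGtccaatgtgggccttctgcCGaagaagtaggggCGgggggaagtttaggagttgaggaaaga
BCAS3: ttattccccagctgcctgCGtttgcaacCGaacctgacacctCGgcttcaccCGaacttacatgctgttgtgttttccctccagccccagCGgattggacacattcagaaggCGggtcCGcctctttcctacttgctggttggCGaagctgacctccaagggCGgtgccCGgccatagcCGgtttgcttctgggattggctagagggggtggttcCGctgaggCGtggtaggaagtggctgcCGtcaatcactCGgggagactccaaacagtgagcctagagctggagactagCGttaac
CAMTA1: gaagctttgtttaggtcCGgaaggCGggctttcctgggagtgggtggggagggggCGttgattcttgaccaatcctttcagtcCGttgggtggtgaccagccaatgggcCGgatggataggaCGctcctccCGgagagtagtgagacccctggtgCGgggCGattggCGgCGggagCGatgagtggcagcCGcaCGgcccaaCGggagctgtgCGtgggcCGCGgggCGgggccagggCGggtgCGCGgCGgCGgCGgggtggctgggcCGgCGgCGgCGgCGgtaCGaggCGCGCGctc
CAST: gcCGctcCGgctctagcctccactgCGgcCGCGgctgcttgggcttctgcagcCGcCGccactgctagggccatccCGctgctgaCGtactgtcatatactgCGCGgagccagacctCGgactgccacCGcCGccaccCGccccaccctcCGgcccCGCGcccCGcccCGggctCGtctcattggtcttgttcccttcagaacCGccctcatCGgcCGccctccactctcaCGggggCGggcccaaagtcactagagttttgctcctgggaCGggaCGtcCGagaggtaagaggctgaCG
CNTNAP2: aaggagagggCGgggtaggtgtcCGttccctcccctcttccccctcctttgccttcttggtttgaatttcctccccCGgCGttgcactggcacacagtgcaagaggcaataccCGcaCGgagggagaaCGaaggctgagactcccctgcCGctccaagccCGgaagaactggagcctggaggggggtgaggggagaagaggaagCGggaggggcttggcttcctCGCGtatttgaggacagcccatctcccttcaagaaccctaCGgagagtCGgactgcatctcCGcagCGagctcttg
PTPRD: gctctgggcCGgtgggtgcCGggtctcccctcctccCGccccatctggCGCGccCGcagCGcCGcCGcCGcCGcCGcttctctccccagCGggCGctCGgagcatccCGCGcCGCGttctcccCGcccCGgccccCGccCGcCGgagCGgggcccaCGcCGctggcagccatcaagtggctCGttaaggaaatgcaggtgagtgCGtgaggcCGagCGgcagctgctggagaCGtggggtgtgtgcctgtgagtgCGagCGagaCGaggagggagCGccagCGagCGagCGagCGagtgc

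The window of ZBTB20, a zinc-finger repressor gene, lies on the minus strand at chr3:115147239-115147538 and holds 15 CG dinucleotides. That of BCAS3, whose product binds the cytoskeleton, lies on the plus strand at chr17:60677601-60677900 with 16. That of CAMTA1, a calmodulin-binding transcription activator gene, lies on the plus strand at chr1:6785204-6785503 with 34. That of CAST, which encodes calpastatin, the inhibitor of calpain proteases, lies on the plus strand at chr5:95961751-95962050 with 30. Of the windows without a peak, that of CNTNAP2, a neurexin-family adhesion gene, has 16 at chr7:146116551-146116850 on the plus strand. PTPRD, a receptor tyrosine phosphatase gene, has 40 at chr9:10612953-10613252 on the minus strand, the most of the 6. Over all starts of very long genes, those with a lipid-overload peak had a median of 30 CG and those without 8. This pools outer starts, with a median of 24 CG, and starts inside the gene, with a median of 6. A lipid-overload peak lay at 17.7% of the outer starts and 6.78% of the inner ones, so start type and CG are mixed.

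Inside the very long genes, γH2AX peaks were sparse in both libraries. Inside means the gene without the 1 kb at either end. Lipid overload gave 468 inside peaks, or 0.232 per 100 kb (0.212 to 0.255), and mock gave 207, or 0.103 per 100 kb (0.0893 to 0.118). Protein-coding genes under 600 kb had 0.998 per 100 kb in lipid overload and 0.301 in mock. The density of the very long genes was therefore 0.233 times that of shorter genes in lipid overload (0.212 to 0.255) and 0.342 times in mock (0.295 to 0.393). Counted with their ends, the very long genes held 510 lipid-overload peaks, 1.87% of that list, and 220 mock peaks, 2.58% of that list.

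Inside density was lower in each longer class of genes, and lowest in the very long ones. In lipid overload, inside density was 2.28 per 100 kb in genes under 10 kb, 2.02 from 10 to 30 kb, 1.36 from 30 to 100 kb, 0.795 from 100 to 300 kb, 0.416 from 300 to 600 kb and 0.232 from 600 kb on. In mock the same classes had 0.662, 0.531, 0.389, 0.245, 0.175 and 0.103 per 100 kb. Among the very long genes, peaks in or at the gene stood at 0.393 per 100 kb in the 85 genes of 600 to 800 kb in lipid overload, 0.235 in the 56 of 800 to 1000 kb, 0.200 in the 49 of 1000 to 1500 kb and 0.137 in the 18 of 1500 kb or more. In mock the same groups had 0.128, 0.142, 0.0960 and 0.0497, with no decline over the first 2 groups.

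**Figure D1:**
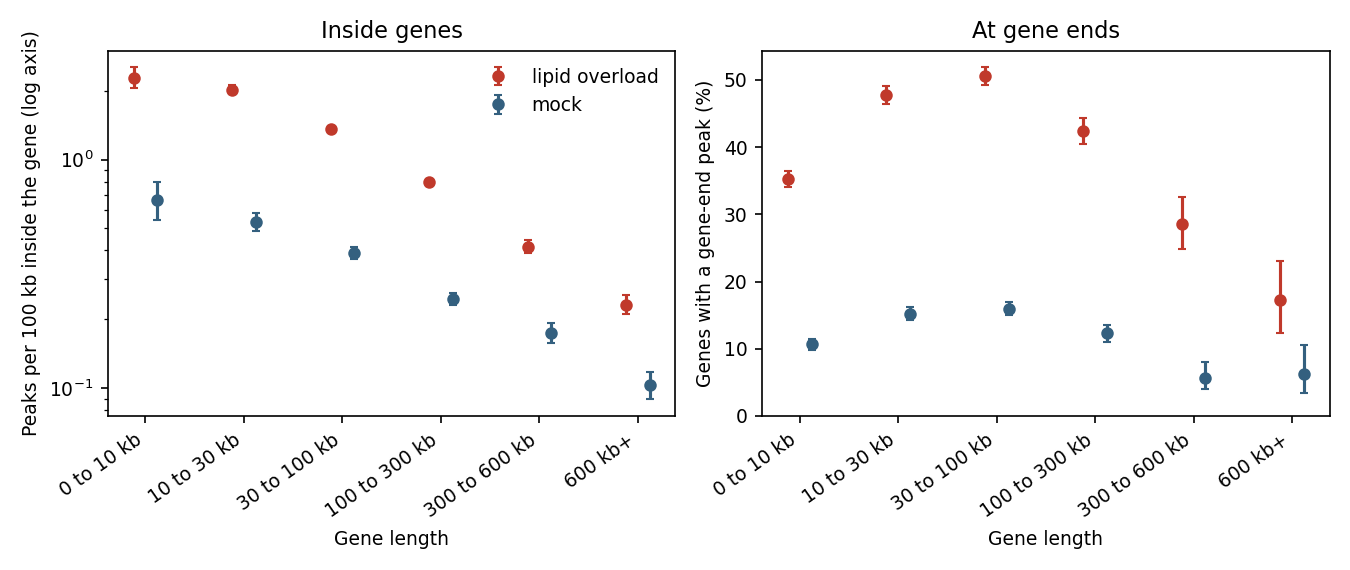
Peaks per 100 kb inside genes (left, log axis) and the percentage of genes with a peak within 1 kb of an end (right), by gene length, with points for each library and bars for exact 95% counting intervals. Inside density is lowest at 600 kb or more, at 0.232 in lipid overload and 0.103 in mock, and gene-end peaks are most frequent at 30 to 100 kb, at 50.5% and 15.9%.

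Genes next to the length limit showed how uneven single genes were. Just above it, TMEM117 had 7 lipid-overload peaks and 0 mock peaks, ADGRV1 0 and 1, PRELID2 3 and 0, FOXP2 0 and 0, and SORCS1 4 and 1. Just below it, STK3 had 2 lipid-overload peaks and 2 mock peaks, SNX29 15 and 3, AFF3 3 and 1, ELMO1 1 and 0, and FGF13 1 and 1.

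The sequence around the very long genes was denser in peaks than the genes themselves. In the 500 kb on either side, lipid overload had 0.601 peaks per 100 kb (0.568 to 0.636) and mock 0.200 (0.181 to 0.221). Inside density was 0.387 times the surrounding density in lipid overload (0.347 to 0.431) and 0.513 times in mock (0.432 to 0.609). The surroundings are also richer in genes, with 8.70 ends of protein-coding genes per Mb around the very long genes against 0.472 per Mb inside them. With peaks at ends of protein-coding genes left out of both, the ratio was 0.546 in lipid overload and 0.658 in mock, so the interior remained the sparser side. Against surroundings outside the bodies of protein-coding genes it was 0.464 in lipid overload and 0.588 in mock. Peaks at gene ends still counted in that comparison.

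Gene by gene, 153 of the 208 were less dense inside than around in lipid overload and 108 in mock. Among all 3347 protein-coding genes of 100 kb or more, 71.2% were less dense inside than around in lipid overload and 61.8% in mock. The share among the very long genes was thus close to that of all such genes in lipid overload and below it in mock. In lipid overload 27 very long genes were denser inside than around, and 28 had no peak in either place. The counts in mock were 48 and 52. Inside density followed surrounding density across the genes, with a Spearman coefficient of 0.695 in lipid overload and 0.496 in mock over the 208 genes. It was -0.166 and -0.0566 against gene length, and 0.395 and 0.272 against the number of gene ends around. These coefficients are descriptions across genes that share a library and in places a neighbourhood.

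**Figure D2:**
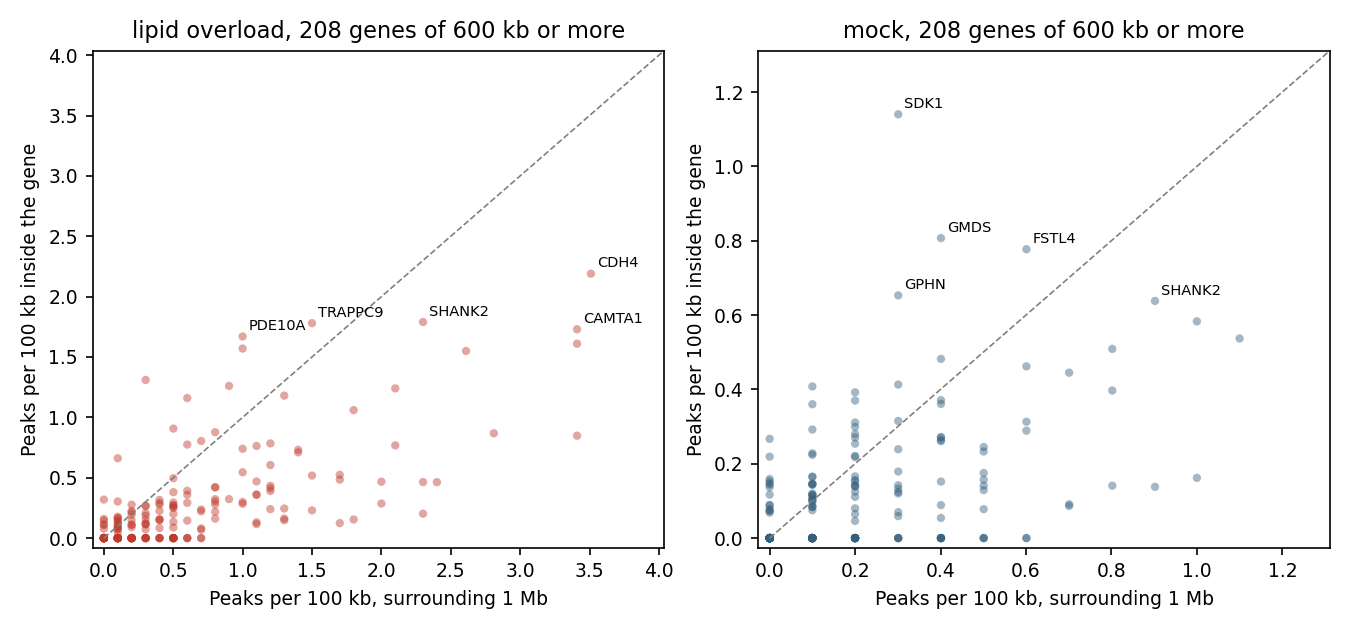
Each point is 1 of the 208 very long genes, with peaks per 100 kb in the surrounding 1 Mb on the horizontal axis and peaks per 100 kb inside the gene on the vertical axis, for lipid overload (left) and mock (right), and the 5 densest genes named. The dashed line marks equal density; 153 genes lie below it in lipid overload and 108 in mock.

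Genes in gene-rich neighbourhoods were the denser ones. The 69 genes with fewest gene ends around them had 0.125 inside peaks per 100 kb in lipid overload and 0.0597 in mock. The middle 69 had 0.225 and 0.124, and the 70 with most had 0.371 and 0.129. By chromosome, among those with at least 5 very long genes, lipid-overload density was highest on chromosome 5 at 0.650 (0.504 to 0.826) and on chromosome 16 at 0.506 (0.348 to 0.711). It was lowest on chromosome 4 at 0.0148 (0.00179 to 0.0533) and on chromosome X at 0.0223 (0.00271 to 0.0807). Mock had 0.204 on chromosome 5, 0.153 on chromosome 16, 0.0148 on chromosome 4 and 0.0112 on chromosome X. The 14 genes of chromosome 4 held only 2 inside peaks in each library. The high values rest on few genes. In lipid overload, CTNND2 held 15 of the 67 inside peaks of chromosome 5, and CDH18 and FSTL4 held 10 each. ZFHX3 held 14 and CDH13 held 9 of the 33 of chromosome 16. The copy number of these chromosomes in HepG2 was not analysed here.

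Genes near chromosome ends were the denser ones. The 15 genes within 5 Mb of the outermost annotated position of a chromosome had 0.643 inside peaks per 100 kb in lipid overload (0.517 to 0.792) and 0.275 in mock (0.194 to 0.377). The 44 genes at 5 to 20 Mb had 0.276 and 0.112. The 149 genes at 20 Mb or more had 0.181 and 0.0828. Peaks around the genes were graded in the same order, at 1.27, 0.663 and 0.509 per 100 kb in lipid overload.

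Peaks were denser at the ends of the very long genes than inside them, but these ends were sparse beside those of most shorter genes. Within 1 kb of an end, lipid overload had 42 peaks, or 5.06 per 100 kb (3.65 to 6.84), and mock had 13, or 1.57 per 100 kb (0.834 to 2.68). End density was 21.8 times inside density in lipid overload (15.5 to 29.9) and 15.2 times in mock (7.97 to 26.6). In lipid overload it was still the lowest of all length classes, which had 8.13 per 100 kb at 300 to 600 kb and 14.3 at 30 to 100 kb. In mock those 2 classes had 1.47 and 3.96, so the very long genes were not the lowest. An end peak was listed for 36 of the 208 genes in lipid overload (17.3%, 12.4 to 23.1), against 43.4% of all protein-coding genes. In mock it was 13 genes (6.25%, 3.37 to 10.5), against 13.4%. The nearest class in length, 300 to 600 kb, had 28.6% in lipid overload (24.9 to 32.5) and 5.71% in mock (3.94 to 7.97), so in mock the very long genes did not stand below it. Both libraries marked the ends of 8 genes, lipid overload alone those of 28 and mock alone those of 5. The same split was not computed over all protein-coding genes, so these counts only describe the 208 genes. At a −log10 q of at least 5, 20 end peaks remained in lipid overload and 0 in mock.

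The end that carried the peak was the 5′ end. RefSeq promoter entries gave the strand of 175 of the 208 genes. Of these, 27 had a 5′ peak in lipid overload (15.4%, 10.4 to 21.6) and 9 in mock (5.14%, 2.38 to 9.54). At the 3′ end, 2 had a peak in lipid overload (1.14%, 0.139 to 4.07) and 0 in mock, which allows up to 2.09%. Among 15636 shorter genes with a known strand, 42.9% had a 5′ peak in lipid overload and 13.0% in mock, and 5.92% and 1.51% a 3′ peak.

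ZBTB20 had the highest end peak of all very long genes, at chr3:115147252-115147795, with 27 fragments in lipid overload (17.8 to 39.3) and 8 in an overlapping mock peak (3.45 to 15.8). BCAS3 had 23 fragments in lipid overload (14.6 to 34.5) at chr17:60677760-60677956 and no end peak in mock. CAMTA1 had 22 (13.8 to 33.3) at chr1:6784989-6785408, beside a second peak of 11, and none in mock. These 3 starts are not listed as an end of another protein-coding gene, and each of the 3 peaks overlaps the promoter window printed above.

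At CAST the end peak had 16 fragments in lipid overload (9.15 to 26.0) and 8 in mock (3.45 to 15.8), and an end of ELL2, a transcription elongation factor gene, lies there too. The end peak of DAB1, an adaptor of the reelin pathway, had 15 fragments in lipid overload and is shared with OMA1, a mitochondrial protease gene. That of DLG2, a postsynaptic scaffold gene, had 14 and is shared with TMEM126B, a factor in assembly of respiratory complex I. Neither had an end peak in mock. Of the 42 end peaks in lipid overload, 10 lay at an end of another protein-coding gene as well, and of the 13 in mock, 2 did. Leaving those out, 20 of the 175 genes with known strand kept a 5′ peak of their own in lipid overload and 7 in mock. ULK4, a pseudokinase gene, had 15 end fragments in lipid overload and EXOC6B, a subunit of the exocyst, had 14, with no end peak of either in mock.

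The share of starts with a peak was higher in CG-rich classes. In each class it was below that of shorter genes, though not always beyond counting error. RefSeq lists 366 starts for the 175 genes, 130 at the outer 5′ end and 236 inside the gene. A peak lay within 1 kb of 39 starts in lipid overload (10.7%, 7.69 to 14.3) and of 13 in mock (3.55%, 1.90 to 6.0). For 18684 starts of shorter genes the shares were 40.0% and 11.9%. With 20 or more CG dinucleotides in the 300 bases, 27 of 123 starts of very long genes were marked in lipid overload (22%, 15.0 to 30.3) and 10 in mock (8.13%, 3.97 to 14.4). Shorter genes reached 60.2% and 17.7% in that class. With 10 to 19, very long genes had 14.1% and 4.69%, and shorter genes 38.7% and 12.3%. With 5 to 9, the shares were 2.94% and 0% in very long genes, and 14.5% and 4.24% in shorter genes. With 0 to 4, they were 0.901% and 0% in very long genes, and 4.41% and 1.25% in shorter genes. In mock, the intervals of very long genes covered the value of shorter genes in every class under 20 CG. They were 0.977 to 13.1 at 10 to 19, 0 to 5.28 at 5 to 9 and 0 to 3.27 at 0 to 4. In lipid overload this held only at 0 to 4 (0.0228 to 4.92).

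**Figure D3:**
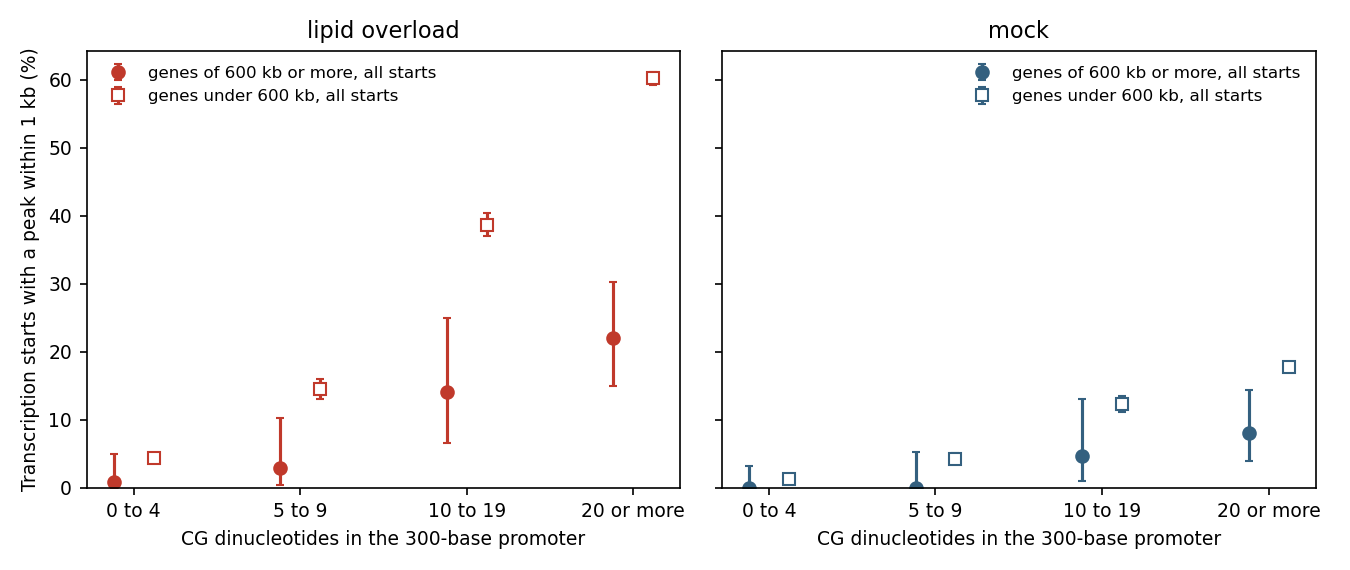
Percentage of transcription starts with a peak within 1 kb, by the number of CG dinucleotides in the 300-base promoter, for lipid overload (left) and mock (right), with filled circles for genes of 600 kb or more, open squares for shorter genes, and bars for exact 95% counting intervals. At 20 or more CG the very long genes reach 22% in lipid overload and 8.13% in mock, and shorter genes 60.2% and 17.7%.

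The outer starts alone, which are as CG-rich as those of other genes, showed the same gap. They held a median of 24 CG in very long genes and 22 in shorter genes. A peak in lipid overload lay at 23 of the 130 outer starts of very long genes (17.7%, 11.6 to 25.4) and at 44.7% of those of shorter genes. In mock the shares were 6.92% (3.21 to 12.7) and 13.6%. Inner starts were poorer in CG, with a median of 6 in very long genes, and 16 of 236 had a peak in lipid overload (6.78%, 3.92 to 10.8) and 4 in mock (1.69%, 0.464 to 4.28).

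The promoter windows were searched on both strands for the letters GGGCGG, the GC box core, which holds a CG itself. GGGCGG was found in 32 of the 39 starts of very long genes with a lipid-overload peak (82.1%, 66.5 to 92.5) and in 104 of the 327 without (31.8%, 26.8 to 37.2). It stood in 54.9% of all promoter windows of shorter genes. The starts of very long genes pool outer and inner ones, which differ in CG and in the share with a peak. A peak near neighbouring starts counts for each of them. CCAAT was found in 46.2% of the starts with a peak (30.1 to 62.8) and 32.4% of those without (27.4 to 37.8), against 35.8% in shorter genes. TGACTCA was in 5.13% and 4.59%, against 4.15%, and TATAAA in 5.13% and 12.2%, against 10.2%. Among the windows printed above, all 6 hold GGGCGG or its reverse complement, including the unmarked CNTNAP2 and PTPRD. Only the 4 with a peak hold CCAAT or its reverse complement, and none of the 6 holds TGACTCA or TATAAA. These 6 windows were picked by their peaks, so they are no measure of CCAAT at starts in general.

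Most peaks inside the very long genes lay away from any annotated start or end. In the 175 genes with known strand, 337 of 384 inside peaks in lipid overload (87.8%, 84.1 to 90.9) and 171 of 185 in mock (92.4%, 87.6 to 95.8) were of this kind. That sequence makes up 97.8% of the interior, and its density was 0.203 per 100 kb in lipid overload and 0.103 in mock. The remaining peaks sat on a small territory. Internal starts of the same gene held 17 peaks in lipid overload, or 3.57 per 100 kb (2.08 to 5.72), and 4 in mock, or 0.840 (0.229 to 2.15). Ends of other protein-coding genes held 11, or 6.56 per 100 kb (3.28 to 11.7), and 3, or 1.79 (0.369 to 5.23). Ends of noncoding genes and pseudogenes held 19, or 0.601 per 100 kb, and 7, or 0.221.

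In lipid overload, bins farther from a gene end held fewer peaks per 100 kb. Counted from the nearer end, density was 0.669 per 100 kb at 1 to 10 kb, 0.337 at 10 to 50 kb, 0.294 at 50 to 150 kb, 0.225 at 150 to 300 kb and 0.164 beyond 300 kb (0.137 to 0.195). In mock the same bins had 0.187, 0.102, 0.128, 0.0916 and 0.0942. The intervals of the mock bins overlapped. The bins beyond 300 kb draw more on the longer genes, which were sparser, so position and gene length are mixed there. The bins within 10 kb held 25 peaks in lipid overload and 7 in mock. Density near the 3′ end was not below that near the 5′ end in lipid overload: at 1 to 10 kb it was 0.766 from the 3′ end (0.396 to 1.34) and 0.381 from the 5′ end (0.140 to 0.829). Outside the genes there was no such slope, with 0.456, 0.661, 0.557, 0.574 and 0.632 per 100 kb in lipid overload at 1 to 10, 10 to 50, 50 to 150, 150 to 300 and 300 to 500 kb.

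**Figure D4:**
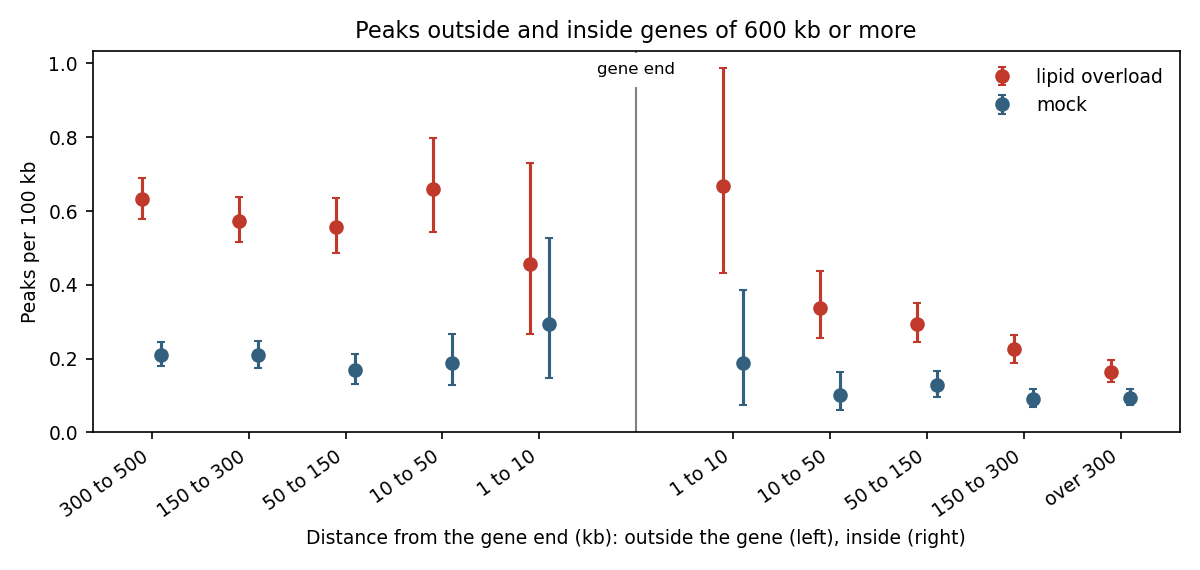
Peaks per 100 kb by distance in kb from the nearer end of a gene of 600 kb or more, outside the gene on the left and inside on the right, with bars for exact 95% counting intervals. Inside, lipid overload goes down to 0.164 beyond 300 kb and mock lies between 0.0916 and 0.187, while outside lipid overload stays between 0.456 and 0.661.

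A peak somewhere in or at the gene was listed for 127 of the 208 genes in lipid overload (61.1%), against 58.0% of all protein-coding genes, and for 109 in mock (52.4%), against 24.2%. An inside peak was listed for 123 genes in lipid overload (59.1%), against 27.8% of all protein-coding genes, and for 102 in mock (49.0%), against 12.7%. By length class, a peak in or at the gene was listed in lipid overload for 68.5% of genes of 30 to 100 kb, 69.2% of 100 to 300 kb and 64.8% of 300 to 600 kb. In mock those shares were 29.8%, 36.3% and 43.2%. Peaks in both lists were found for 88 of the 208 genes, a larger share than the 21.5% of all genes. Lipid overload alone marked 39 of the 208, a smaller share than the 36.6% of all genes. Mock alone marked 21 of the 208, a larger share than 2.75%. In neither list were 60 of the 208, a smaller share than 39.2%. More lipid-overload than mock peaks were found in 97 of the 208, close to the 47.3% of all genes. More mock peaks were found in 32, and equal numbers above 0 in 19. None of these shares was matched for gene length, and a longer gene has more room for a peak. The split between the lists was not computed by length class. The median gene had 1 peak in lipid overload and 1 in mock, and the highest numbers were 19 and 11.

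The 10 densest genes in lipid overload were CDH4, CAMTA1, TRAPPC9, SHANK2, CTNND2, PDE10A, AGAP1, FSTL4, GPHN and ZFHX3. CDH4, which encodes R-cadherin, had 15 peaks in lipid overload, or 2.18 per 100 kb (1.22 to 3.59), and 4 in mock, or 0.581. All were inside the gene at chr20:61252261-61940617, and the surroundings were denser still, at 3.51 in lipid overload and 1.00 in mock. CAMTA1 at chr1:6785454-7769706 had 19 peaks in lipid overload, the most of any very long gene, and 5 in mock. Its highest inside peak, 177 kb from the start, had 27 fragments in lipid overload (17.8 to 39.3) and 6 in mock (2.20 to 13.1). A second shared peak at an internal start had 20 and 6.

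TRAPPC9, a subunit of a vesicle-tethering complex, had 14 peaks in lipid overload and 1 in mock, and its end peaks in both libraries overlapped, with 10 fragments in lipid overload and 7 in mock. SHANK2, a postsynaptic scaffold gene, had 14 in lipid overload and 5 in mock, with no peak shared. CTNND2, which encodes delta-catenin, had 16 and 5. PDE10A, a cyclic nucleotide phosphodiesterase gene, had 11 and 1, and AGAP1, a regulator of Arf GTPases, 10 and 2. Both were denser inside than around in lipid overload, PDE10A at 1.66 in the gene against 1.00 around and AGAP1 at 1.57 against 1.00. FSTL4, a follistatin-like gene, had 10 and 5 peaks. ZFHX3, a zinc-finger homeobox gene, had 14 and 3, at 1.26 per 100 kb in the gene against 0.902 around in lipid overload. TRAPPC9, at 1.78 inside against 1.50 around, and GPHN, at 1.31 against 0.301, were also denser inside in lipid overload. CDH4, CAMTA1, SHANK2, CTNND2 and FSTL4 were denser around. The median distance of these 10 genes from a chromosome end was 8.88 Mb, against 33.8 Mb for all 208.

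GPHN encodes gephyrin, which anchors inhibitory receptors and completes synthesis of the molybdenum cofactor. It spans 1227 kb at chr14:66508147-67735355 and holds 25 ends of other protein-coding genes. It had 17 peaks in lipid overload and 9 in mock, 1 of them at its own 5′ end in each library, with 10 and 5 fragments. Of the inside peaks, 7 in lipid overload and 3 in mock lay at ends of other protein-coding genes within it. The highest lay at PALS1, a cell polarity gene, with 32 fragments in lipid overload (21.9 to 45.2) and 12 in mock (6.20 to 21.0). The next lay where ends of ATP6V1D and EIF2S1, subunits of the proton pump and of an initiation factor, adjoin, with 18 and 7. A peak of 18 fragments at ARG2, the mitochondrial arginase gene, was listed in lipid overload alone. The 9 inside peaks of lipid overload elsewhere in GPHN had 4 to 8 fragments.

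The highest inside peak of any very long gene was in DLGAP1, a postsynaptic scaffold gene on chromosome 18. It lay at chr18:3624007-3624482 with 39 fragments in lipid overload (27.7 to 53.3) and 10 in mock (4.80 to 18.4). It is 831 kb from the 5′ end, at no annotated start of the gene. In CAST a peak at an internal start had 22 fragments in lipid overload (13.8 to 33.3) and 8 in mock (3.45 to 15.8). FOXP1, a forkhead transcription factor gene, had an inside peak of 19 in lipid overload and 5 in mock.

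Some places were about as high in mock as in lipid overload, although the mock library was probably the shallower one. CDH4 at chr20:61362324-61362596 had 17 fragments in lipid overload (9.90 to 27.2) and 18 in mock (10.7 to 28.4), the most of any mock peak in these genes. KCNMA1, the pore subunit of a large-conductance potassium channel, had 19 (11.4 to 29.7) and 16 (9.15 to 26.0) at chr10:77519957-77520306. RBFOX1, a splicing regulator and the longest gene at 2474 kb, had 14 (7.65 to 23.5) and 11 (5.49 to 19.7) at chr16:7008836-7009074. In each of these the intervals of both libraries overlap.

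The 5 longest genes are RBFOX1, CNTNAP2, PTPRD, DMD and DLG2. RBFOX1 had 5 peaks in lipid overload and 4 in mock, or 0.202 and 0.162 per 100 kb, against 2.30 and 1.00 around it. DLG2 had 6 and 1. DMD, the dystrophin gene, had 2 and 0 and PTPRD 1 and 0, all of 4 fragments. CNTNAP2 had none in either library over 2304 kb, which allows up to 0.160 per 100 kb in each. Long genes without any peak included CNTNAP2, LRP1B, a lipoprotein receptor family gene, ROBO2, a receptor for Slit guidance cues, and FHIT, a dinucleoside polyphosphate hydrolase gene. LRP1B and FHIT had no peak in the surrounding 1 Mb in either library. ROBO2 had 5 around it in lipid overload and 3 in mock, and CNTNAP2 5 and 1.

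Gene groups were described by 6 lists, which together hold 116 of the 208 genes, 20 of them in more than 1 list. The lists were made with earlier results of these data known, and expression in these cells was not measured. Values for all 208 include the genes of each list. Over all 208 genes, counting a peak once for each gene it touches, density was 0.255 per 100 kb in lipid overload and 0.109 in mock, and 61.1% and 52.4% had a peak. The list of broadly expressed genes had the highest density. Of its 93 lipid-overload peaks, GPHN held 17, TRAPPC9 14 and AGAP1 10, and 7 of those in GPHN lay at ends of other protein-coding genes. Of 23 such genes, 18 had a peak in lipid overload (78.3%) and 14 in mock (60.9%), at 0.477 per 100 kb (0.385 to 0.584) and 0.154 (0.104 to 0.220). An end peak was listed for 13 of them in lipid overload (56.5%) and 6 in mock (26.1%), against 17.3% and 6.25% of all 208. WWOX, an oxidoreductase gene, had 13 end fragments in lipid overload and 6 in mock, and IMMP2L, a mitochondrial protease gene, 8 and 3. SMYD3, a lysine methyltransferase gene, had 8 peaks in lipid overload and 3 in mock, none at an end. FHIT, DIAPH2, PTPRG and CDKAL1, also on this list, had no peak in either library.

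Common fragile site genes had the lowest density of the 6 lists. Of 25, 17 had a peak in lipid overload (68.0%) and 9 in mock (36.0%), against 61.1% and 52.4% of all 208, at 0.136 per 100 kb (0.0996 to 0.181) and 0.0385 (0.0205 to 0.0658). In both libraries these densities are below the 0.255 and 0.109 of all 208. The list holds some of the longest genes, such as CNTNAP2, DMD, DLG2 and LRP1B. Very long genes of 1500 kb or more had 0.137 per 100 kb in lipid overload and 0.0497 in mock. Lists were not matched for gene length, so length and list are mixed here. Ends of these fragile site genes were marked in 8 genes in lipid overload (32.0%) and 2 in mock (8.00%), against 17.3% and 6.25% of all 208. These shares rest on few genes. The end peaks of DAB1 and DLG2 are shared with OMA1 and TMEM126B, and 4 of the 25 genes are also on the broadly expressed list. DAB1 and DLG2 led with 6 peaks each in lipid overload, against 2 and 1 in mock. Neither library had a peak in 7 of them, among them CNTNAP2, LRP1B and FHIT. In FHIT and LRP1B a count of 0 allows up to 0.245 and 0.194 per 100 kb.

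The 38 brain-enriched adhesion and synapse genes were close to the whole set. Of these, 25 had a peak in lipid overload (65.8%) and 23 in mock (60.5%), at 0.244 and 0.114 per 100 kb, with end peaks in 5 and 1. Within the list CTNND2 had 16 peaks in lipid overload and 5 in mock, while CADM2 and CNTN4 had none. CDH18, a cadherin gene with no end of another protein-coding gene within 500 kb, had 10 and 3. It was denser inside than around in lipid overload, at 0.905 against 0.501, and not in mock, at 0.272 against 0.401.

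Of 13 channel and neurotransmitter receptor genes, 9 had a peak in lipid overload (69.2%) and 8 in mock (61.5%), at 0.326 (0.234 to 0.442) and 0.119 (0.0668 to 0.197) per 100 kb. CACNA1C, which encodes the pore of an L-type calcium channel, and GRID1, a glutamate receptor family gene, had 9 peaks each in lipid overload, against 1 and 2 in mock. Of 18 phosphatase, kinase and cyclic nucleotide signalling genes, 10 had a peak in lipid overload (55.6%) and 12 in mock (66.7%), at 0.176 (0.122 to 0.245) and 0.0878 (0.0511 to 0.141). PTPRM, a receptor tyrosine phosphatase gene, was the only one with an end peak, in lipid overload. NRG3 had 0 peaks in lipid overload and 4 in mock. Of 19 transcription and RNA-binding regulator genes, 10 had a peak in lipid overload (52.6%) and 11 in mock (57.9%), at 0.242 and 0.112. ZFHX3 held 14 of the 41 lipid-overload peaks of that list, which as written also contains EXOC6B, no transcription regulator.

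**Figure D5:**
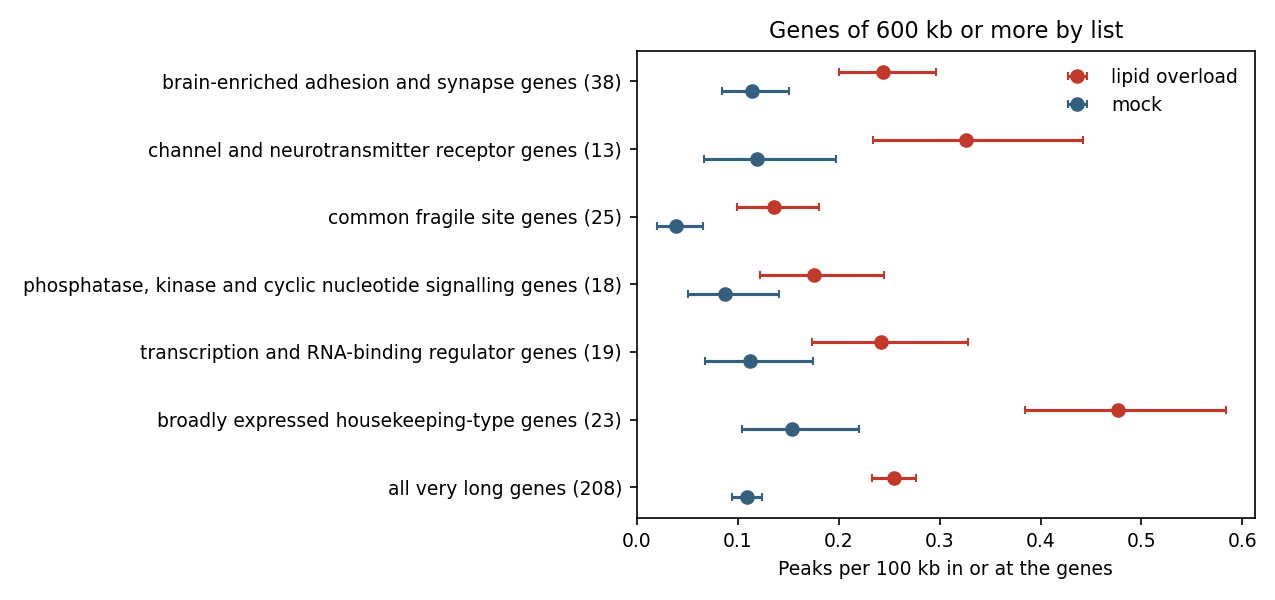
Peaks per 100 kb in or at the genes of 600 kb or more, for each gene list (number of genes in brackets) and for all 208 genes, with bars for exact 95% counting intervals. Broadly expressed genes are highest, at 0.477 in lipid overload and 0.154 in mock, and common fragile site genes lowest, at 0.136 and 0.0385.

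How far the lipid-overload list exceeded the mock list in the very long genes, relative to elsewhere, depended on the cut. As listed, lipid-overload over mock peak number was 2.32 in or at the very long genes (1.98 to 2.73). It was 2.26 inside them (1.92 to 2.68) and 3.23 at their ends (1.70 to 6.56). Inside shorter genes it was 3.32 (3.19 to 3.45), in the surroundings 3.0 (2.68 to 3.37) and over the whole lists 3.20 (3.12 to 3.28). These ratios compare 2 libraries of probably unequal depth. At a −log10 q of at least 5 the order was the other way with overlapping intervals: 8.33 inside very long genes (4.16 to 18.9), from 75 lipid-overload and 9 mock peaks, 7.80 inside shorter genes (7.02 to 8.69) and 7.64 around (5.77 to 10.3). At a fold of at least 5 it was 4.2 inside very long genes (2.97 to 6.05), 4.24 inside shorter genes (3.96 to 4.54) and 4.0 around. Above 5 fragments, a cut chosen after seeing the data, it was 8.66 inside very long genes (5.88 to 13.2) and 6.28 inside shorter genes (5.92 to 6.66). With both lists taken to the same length by rank, 61 lipid-overload peaks and 220 mock peaks remained in or at the very long genes, a ratio of 0.277. The inside ratio was then 0.217 in very long genes (0.154 to 0.301) and 0.750 in shorter genes (0.711 to 0.792).

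The peaks inside very long genes were weak ones in both libraries. They had a median of 6 fragments in lipid overload and 4 in mock, and 46.4% (41.8 to 51.0) and 86.0% (80.5 to 90.4) rested on 5 fragments or fewer. Inside shorter genes those shares were 20.1% and 57.8%. A smaller share of them was shared between libraries. Of the 468 inside peaks in lipid overload, 25 overlapped a mock peak (5.34%, 3.49 to 7.78), against 10.3% inside shorter genes. Of the 207 in mock, 25 overlapped a lipid-overload peak (12.1%, 7.97 to 17.3), against 34.7%. At the ends of very long genes, 8 of 42 lipid-overload peaks (19%, 8.60 to 34.1) and 8 of 13 mock peaks (61.5%, 31.6 to 86.1) were shared.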

How the data were processed

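γH2AX was mapped by CUT&Tag in HepG2 cells, with 1 library per group. The labels give 100000 cells and 14 PCR cycles for each. Build hg38, BWA and MACS2 2.1.2 are named in the submitters' processing notes. Settings, and the use of IgG as control, are not given in the sources used. The deposited lists give for each peak a score, a fold (a linear ratio), −log10 p, −log10 q and a summit offset, as the authors made them, called per library. Neither list went below a −log10 q of 1.30.

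Fragment numbers were solved from fold and −log10 p under the formulas of MACS2, and whole numbers matched 100% of peaks within 1.00e-04 in log10 p. The step was tested on simulated data. Genes came from the RefSeq gene table of GRCh38.p14. Of its 59792 genes, 718 stand over 1 Mb out of order on their chromosome and were set aside, 171 of them protein-coding. Strand and starts came from the RefSeq promoter table, which matched 175 of the 208 genes. Overlap means at least 1 bp, and a gene end is 1 kb either side. Python 3.11.15, numpy 2.4.6, pandas 2.3.3, scipy 1.17.1 and matplotlib 3.10.9 were used. Intervals are exact Poisson for counts and Clopper-Pearson for shares, and ratios of counts use the binomial form.

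With 1 library per group no test was run. The genes, lists and naming rule were chosen with earlier results of these data known. Named genes are the 5 longest, the 10 densest in lipid overload, those with the highest end and inside peaks, the longest without a peak and the densest of each list. Others named in the text, such as SDK1, NRG3, WWOX, IMMP2L and the genes nested in GPHN, were chosen after their values were seen. Some genes picked by this rule are not reported here. Alternatives were a stricter q or fold, equal list lengths, merged peaks, summits, other end widths, other length limits and other surroundings.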

Additional observations from a re-analysis of the deposited data

How the results depend on the processing

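Of 73 alternative values of the 7 ratios, 43 stayed within their counting interval, 28 moved and 2 turned round. With equal list lengths the mock list, the shorter one, was left whole. Values of mock by itself could not change there, yet they count as stayed, also among the shares below. Very long genes stayed the sparser side of both comparisons under every alternative run. Lipid-overload over mock peak number, 2.32, was 10.6 at a −log10 q of at least 5, 4.46 at a fold of at least 5, 1.96 for genes of 800 kb or more, and 0.277 with equal list lengths. Inside density against shorter genes, 0.233 in lipid overload and 0.342 in mock, was 0.124 and 0.116 at that q, 0.198 and 0.200 at that fold, and 0.353 and 0.467 against genes of 100 to 600 kb. In lipid overload it was also 0.0990 with equal list lengths, 0.257 from 500 kb and 0.184 from 800 kb. Against the surroundings, 0.387 and 0.513 became 0.172 and 0.158 at that q, 0.278 and 0.265 at that fold, and 0.546 and 0.658 without peaks at gene ends. In lipid overload it was also 0.133 with equal list lengths, 0.343 with 1 Mb either side, and 0.464 outside the bodies of protein-coding genes. End over inside density, 21.8 and 15.2, was 46.5 and 29.6 at that fold and 9.67 and 6.71 with ends of 3 kb. In lipid overload it was 64.6 at that q, 86.2 with equal list lengths and 32.0 from 800 kb; in mock it was 0 at that q, where 0 end peaks remained. Of 36 values for shares of genes with a peak, 27 stayed and 9 moved. Leaving out genes with an end of another protein-coding gene inside, chosen after seeing the data, left 170 genes and all 7 ratios within their intervals. No paired analysis was possible because each group has 1 library, and leaving out a replicate was not possible either. Few fragments limit the values, since 46.4% of the inside peaks in lipid overload and 86.0% in mock rest on 5 or fewer.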

Other observations

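SDK1, a sidekick adhesion gene on chromosome 7, held the most mock peaks of any very long gene and was chosen after its values were seen. It had 6 peaks in lipid overload and 11 in mock, or 0.620 and 1.14 per 100 kb. Around it the order was the other way, with 1.50 per 100 kb in lipid overload and 0.301 in mock. Its 11 mock peaks lay 281 to 963 kb from the start and had 3 to 8 fragments each, and 1 of them overlapped a lipid-overload peak. GMDS, a GDP-mannose dehydratase gene on chromosome 6 also singled out afterwards, had 4 peaks in lipid overload and 5 in mock. The surrounding density was 1.70 in lipid overload and 0.401 in mock.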
